A study of Mus musculus with 2 samples.

Results

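Transforming growth factor β (TGFβ) is secreted in a latent form that is held in an inactive complex until it is released at the cell surface. The free ligand joins a type II and a type I receptor, whose kinase phosphorylates receptor Smads, and these enter the nucleus and set the transcription of target genes. In the brain, microglia are known both to make TGFβ1 and to need it for their homeostatic gene set. The data described here concern 10 genes of this pathway, taken by their symbols from the matrices of all 8 mice. They are the ligand Tgfb1, the surface anchor of latent TGFβ1 Nrros, the receptors Tgfbr1 and Tgfbr2, the receptor Smads Smad1, Smad2 and Smad3, the inhibitory Smad7, and the nuclear corepressors Ski and Skil. All 10 had a row among the 32285 genes of the matrices, and all 10 could be tested in microglia.

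CD45+ cells from the brains of 8 mice of 12 weeks were sequenced as single cells. The 4 control mice were Cre-negative Arpc4 fl/fl animals. The 4 knockout mice, called Arpc4ΔCx3cr1, were Arpc4 fl/fl littermates that carried Tg(Cx3cr1-Cre), so both groups had the floxed alleles. Per the study's methods, the 4 controls were male, and 1 of the 4 knockout mice was female and the others male. The study left the female out of its later steps. Arpc4 encodes a subunit of the Arp2/3 complex, which nucleates branched actin, and the Cx3cr1 promoter drives Cre in microglia and in other cells that use it, among them border macrophages. Cells of each mouse were marked with an oligonucleotide tag and pooled in 1 droplet library, so the mouse is the replicate and all mice share the library. Unique molecular identifiers (UMIs) count transcript molecules at their 3′ end. Each mouse gave between 5251527 and 12878691 UMIs on genes, and no barcode occurred in more than 1 mouse.

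A microglia-like cluster needed at least 3 of P2ry12, Tmem119 and 7 further markers at a log2 of 0.5 over lymphoid and granulocyte clusters. Cluster 6 (1284 cells, 1254 of them from knockout mice) was included, although P2ry12 (377 against 395 CPM) and Sall1 (33.9 against 63.1 CPM) were lower in it. Of 19863 cells kept, 17028 were called microglia-like, 7792 from control and 9236 from knockout mice. A further 415 cells were CAM-like (CNS-associated macrophages, led by Pf4, F13a1 and Mrc1), 347 monocyte-like, 309 T cell-like, 80 granulocyte-like and 79 B cell-like. The 10 genes did not enter the clustering. In microglia-like cells Arpc4 stood at 216 to 237 CPM (UMIs of a gene scaled to a common total of UMIs) in control and 138 to 153 in knockout mice. Whether the counted 3′ end lies inside the deleted part is not given in the sources used here. Knockout mouse 1 stood apart, with Xist at 1443 CPM against at most 13.8 in any other mouse. Knockout microglia also differed in the make-up of their RNA. Genes that span over 100 kb took 17.6 to 19.0% of UMIs against 20.03 to 20.29% in control microglia, and mitochondrial genes took 1.07 to 1.28% against 0.542 to 0.595%. The part of these shifts in the differences below was not tested.

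Under every processing tried, Tgfb1, Smad1 and Smad3 were lower and Tgfbr2 was higher in knockout microglia, with levels given below. Sequences upstream of 3 of these genes are shown, that of Smad1 being left out. Each is the 250 bases before the RefSeq start on GRCm38.p6, written 5′ to 3′ on the gene's strand. For Tgfb1 this is chr7:25686752-25687001 on the plus strand, for Smad3 chr9:63757995-63758244 and for Tgfbr2 chr9:116175364-116175613, both on the minus strand. Capitals mark the Smad box (CAGAC) and the Sp1 box (GGGCGG), on either strand.
Tgfb1: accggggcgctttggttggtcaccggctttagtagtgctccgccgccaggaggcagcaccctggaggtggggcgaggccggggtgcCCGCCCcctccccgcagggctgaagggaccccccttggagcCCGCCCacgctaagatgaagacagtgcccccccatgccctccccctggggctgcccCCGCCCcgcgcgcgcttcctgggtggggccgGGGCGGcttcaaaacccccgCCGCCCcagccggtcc
Smad3: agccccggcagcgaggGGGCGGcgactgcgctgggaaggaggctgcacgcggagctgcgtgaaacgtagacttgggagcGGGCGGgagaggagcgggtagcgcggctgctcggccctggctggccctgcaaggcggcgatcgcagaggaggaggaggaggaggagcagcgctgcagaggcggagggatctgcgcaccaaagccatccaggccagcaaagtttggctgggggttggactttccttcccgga
Tgfbr2: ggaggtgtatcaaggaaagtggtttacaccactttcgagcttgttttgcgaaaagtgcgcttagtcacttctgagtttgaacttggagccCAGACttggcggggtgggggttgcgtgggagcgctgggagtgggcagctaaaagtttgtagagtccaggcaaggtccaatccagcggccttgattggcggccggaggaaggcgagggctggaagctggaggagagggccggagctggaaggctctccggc

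The Tgfb1 sequence held 5 Sp1 boxes and the Smad3 sequence 2, and neither held a Smad box. The Tgfbr2 sequence had 1 Smad box and no Sp1 box. Of all 32851 promoters of that length, 42.2% held a Smad box and 32.7% an Sp1 box, so a match is common and marks no site of binding. The promoter table held 7 of the 10 genes. Ski had 5 Sp1 boxes, Smad1 had 1, and Nrros had 1 Smad box. Tgfbr1 had 2 promoters in the table, one with 2 Sp1 boxes and no Smad box, the other with 1 Smad box and no Sp1 box. The core GGAAGT, read by PU.1 and other Ets factors, was in the second of these Tgfbr1 promoters and in 19.7% of all promoters. Tgfb1 spans 25687002 to 25705077 on chromosome 7, Nrros 32142785 to 32165594 on chromosome 16, Tgfbr1 47353222 to 47414931 on chromosome 4, Tgfbr2 116084293 to 116175360 and Smad3 63646767 to 63757994 on chromosome 9, Smad1 79338395 to 79399518 on chromosome 8, Ski 155154075 to 155222592 on chromosome 4 and Skil 31095058 to 31122577 on chromosome 3 (GENCODE vM21, GRCm38). All 10 are protein coding, and no other gene overlaps any of them on either strand.

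In microglia of Arpc4ΔCx3cr1 mice the ligand and most of the Smads were lower and the type II receptor was higher than in controls. Of the 10 genes, 8 passed an adjusted p of 0.05 in edgeR's quasi-likelihood test, 1 higher and 7 lower. Over all 12729 genes tested, 46.1% passed, 22.8% higher and 23.2% lower, so a difference between the genotypes was common in these cells. The median log2 fold change was -0.18 over the 10 genes and -0.01 over all genes. Values are CPM of the microglia-like cells of a mouse, scaled by the trimmed mean of M values (TMM), and fold changes are knockout over control.

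Tgfb1, the ligand itself, had the largest fall of the 10. It measured 292, 295, 281 and 306 CPM in control mice 1 to 4 and 179, 212, 201 and 217 CPM in knockout mice 1 to 4. All 4 knockout mice lay below all 4 controls. The means were 293 ± 10.5 and 202 ± 16.9 (SD, n = 4 each), which is 0.689-fold (log2 fold change -0.54, standard error 0.07, adjusted p = 7.6e-05). Nrros, also known as LRRC33, tethers latent TGFβ1 to the microglial surface. It measured 229, 210, 207 and 210 CPM in control mice and 193, 194, 171 and 195 CPM in knockout mice. The groups did not overlap, and the log2 fold change was -0.18 (SE 0.06, adjusted p = 0.029). The Nrros call did not hold without control mouse 1 (adjusted p = 0.079) or without knockout mouse 3 (adjusted p = 0.063).

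**Figure D1:**
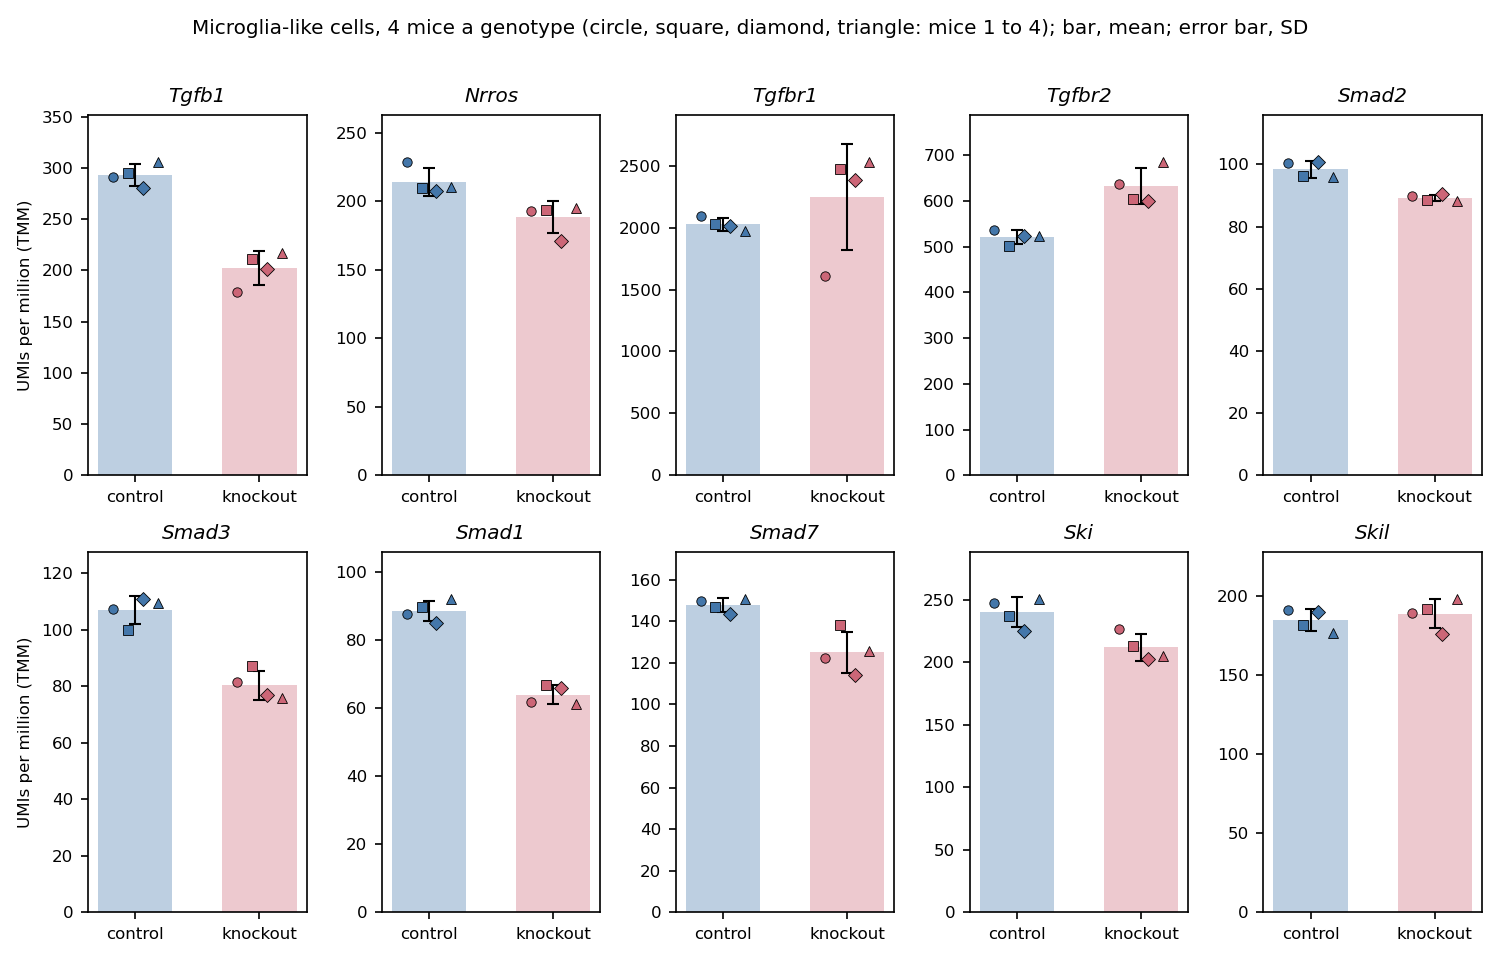
CPM of the 10 genes in microglia-like cells of each mouse, with 1 point for a mouse, bars at the mean of the 4 mice of a genotype and error bars of 1 SD. Tgfb1, Smad1 and Smad3 lie lower in every knockout mouse than in every control mouse, Tgfbr2 lies higher, and for Tgfbr1 knockout mouse 1 stands below the controls while the other 3 knockout mice stand above them.

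The 2 receptors did not follow the ligand. Tgfbr2, the ligand-binding type II receptor, measured 537, 501, 522 and 524 CPM in control mice and 638, 604, 600.0 and 685 CPM in knockout mice. Every knockout value was above every control value, and the log2 fold change was 0.28 (SE 0.06, adjusted p = 0.0021). Tgfbr1, the type I receptor kinase that phosphorylates the Smads, measured 2096, 2027, 2014 and 1972 CPM in control mice. In knockout mice 2 to 4 it measured 2470, 2381 and 2531 CPM, above all controls, but in knockout mouse 1 it measured 1612 CPM, below all of them. With all 8 mice the log2 fold change of 0.15 (SE 0.12) did not pass (adjusted p = 0.34), and without knockout mouse 1 it was 0.28 with an adjusted p of 0.00018, so that 9 of the 10 genes passed.

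Among the receptor Smads, Smad1 and Smad3 showed the larger differences. Smad3, which carries the TGFβ signal together with Smad2, measured 107, 99.8, 111 and 110 CPM in control mice and 81.6, 87.1, 76.9 and 75.8 CPM in knockout mice. Smad1, best known as a Smad of the bone morphogenetic protein branch, measured 87.6, 89.7, 85.1 and 92.1 CPM in control mice and 61.8, 66.8, 66.0 and 61.2 CPM in knockout mice. Neither gene overlapped between the genotypes. The log2 fold change was -0.41 for Smad3 (SE 0.06, adjusted p = 0.00025) and -0.47 for Smad1 (SE 0.05, adjusted p = 3.3e-05). Smad3 spans 111.2 kb and so belongs to the long genes, whose share of UMIs was lower in knockout microglia. The part of that shift in its difference was not tested. Smad2 fell less. It stood at 96.04 to 101 CPM in control and 88.3 to 90.5 CPM in knockout mice, a log2 fold change of -0.14 (SE 0.05, adjusted p = 0.027), and it did not pass under 9 of 20 alternatives, with adjusted p between 0.00098 and 0.52.

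Of the inhibitors, Smad7, which binds the active receptor and is itself induced by TGFβ, measured 150, 147, 144 and 151 CPM in control mice and 123, 138, 114 and 125 CPM in knockout mice. The groups did not overlap, and the log2 fold change was -0.24 (SE 0.06, adjusted p = 0.0089). The Smad7 call did not hold with all deposited cells (adjusted p = 0.065). Ski and Skil recruit histone deacetylases to Smad complexes and so dampen transcription. Ski measured 225 to 251 CPM in control and 203 to 227 CPM in knockout mice, with overlap in knockout mouse 1, and its log2 fold change of -0.18 (SE 0.06, adjusted p = 0.026) missed the threshold under 9 of 20 alternatives, with adjusted p between 0.0023 and 0.22. Skil measured 177 to 191 CPM in control and 176 to 198 CPM in knockout mice. Its log2 fold change was 0.03 (adjusted p = 0.65). Tgfb1, Tgfbr2, Smad1 and Smad3 passed under all 20 alternatives in the same direction. Scaling by total UMIs alone moved the median of all genes by -0.11 and left 34.5% of the calls in the higher direction against 49.6% with TMM.

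**Figure D2:**
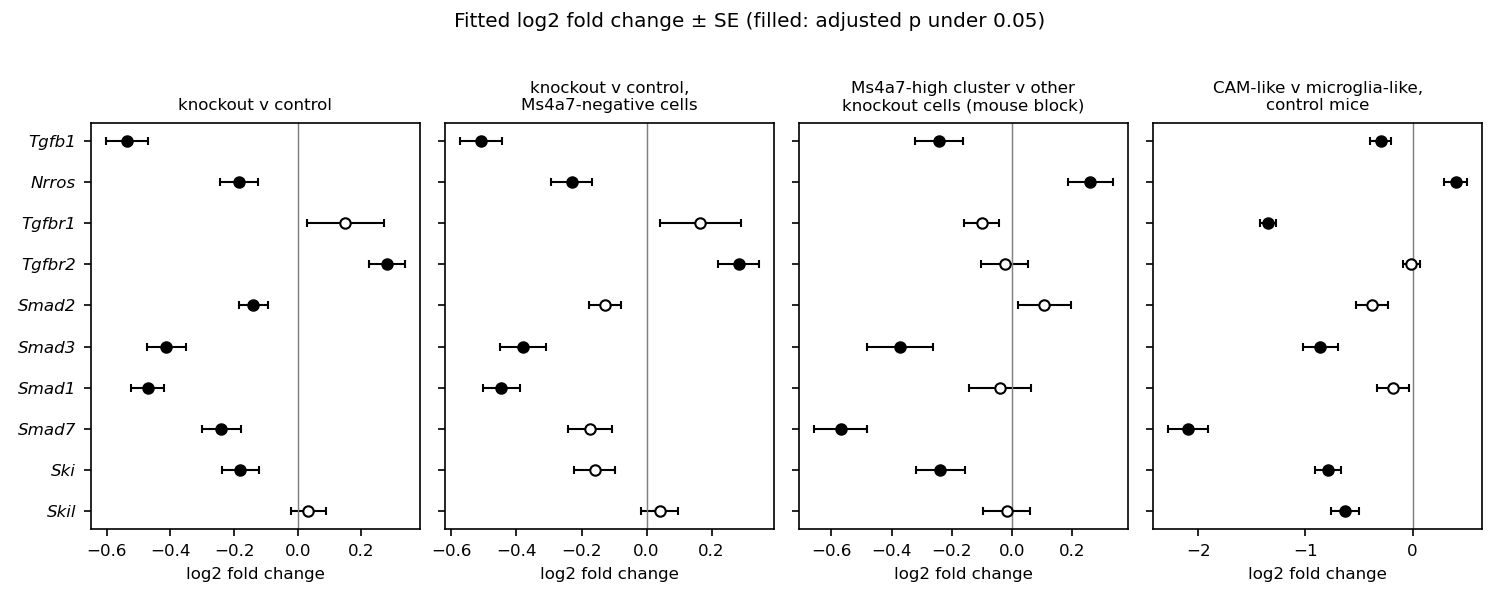
Log2 fold changes of the 10 genes with their standard errors (edgeR), for knockout against control microglia-like cells, the same without Ms4a7-positive cells, the Ms4a7-high cluster against the other knockout cells with the mouse as a block, and CAM-like against microglia-like cells of control mice. Filled points have an adjusted p under 0.05. Tgfb1, Smad1 and Smad3 lie at -0.54 to -0.38 in both comparisons of genotypes, and Smad7 lies lowest in the other 2 panels, at -0.57 and -2.10.

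The share of microglia-like cells with at least 1 UMI was compared as well. Cells were thinned to 2000 UMIs, which kept 7505 of 7792 control and 8907 of 9236 knockout cells. Tgfb1 was detected in 44.5 ± 1.49% of control and 30.0 ± 2.11% of knockout cells (SD, n = 4 mice each), against 66.5 and 53.4% without thinning. For 8 of the 10 genes the exact two-sided permutation test over the 70 groupings of the mice gave p = 0.0286, the smallest it can give. The test was run on these 10 genes alone. The share of all genes at that p was not computed, so the count cannot be read as particular to these genes. In edgeR's test of the sums, a different test, 46.1% of all genes differed between the genotypes. By the same permutation test the others, Tgfbr1 and Skil, had p = 0.257 and p = 0.0571. Tgfbr2 was the one that rose, from 60.6 ± 1.57 to 64.7 ± 2.27%. Smad3 fell from 18.1 to 12.5% and Smad1 from 16.2 to 10.9%. With cells thinned to 1000 UMIs, Ski had p = 0.0571 and Skil p = 0.0286 by this permutation test. No cell type here is known to lack all of these genes. In unthinned granulocyte-like cells, at a median of 10538 UMIs, 13.8 to 46.3% of cells held a UMI of a given member, against 25.8 to 96.9% of microglia-like cells at a median of 4054 UMIs.

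Empty droplets, which hold free RNA, had all 10 genes too, with Tgfb1 at 239 CPM, Nrros at 131, Tgfbr1 at 1115 and Smad7 at 89.7 CPM. Cells of both genotypes shared the pool. With 10% of each sum taken off as free RNA in the proportions of the empty droplets, the same number of members, 8, passed in microglia, and Tgfb1 had a log2 fold change of -0.59 (adjusted p = 0.00011), Smad1 of -0.50, Smad3 of -0.43 and Tgfbr2 of 0.31. Other amounts of free RNA were not tested. Beside these values stand the markers of other cells in the microglia-like sums. The 7 CAM markers summed to 23.7 to 65.7 CPM in control and 19.7 to 71.6 CPM in knockout mice, with Lyve1 and Cd163 each under 1 CPM in every mouse. The 6 B cell markers summed to 225 to 240 CPM in control and 71.5 to 138 CPM in knockout mice, and the 7 dendritic cell markers to 5.45 to 8.55 and 16.97 to 21.05 CPM, with Ccr7 at 0. The 5 platelet markers summed to 44.1 to 79.0 CPM in control and 7.995 to 22.7 CPM in knockout mice, with Gp1bb at 0. Of these platelet markers, Gp9 was among the 10 leading genes of the control clusters 2 and 3, which is why the levels by cluster are given as well. The 5 vessel markers summed to 24.9 to 26.8 CPM in control and 4.10 to 6.78 CPM in knockout mice, with Cldn5 at 0. The 7 brain tissue markers summed to 27.3 to 37.7 and 46.0 to 47.8 CPM, the 7 monocyte markers to 8.57 to 15.2 and 6.96 to 8.21 CPM, and the 5 NK cell markers to 0.222 to 0.711 and 2.05 to 4.04 CPM. The 5 erythrocyte markers reached at most 5.77 CPM in control mice and 1493 CPM in 1 knockout mouse. Summed T cell, granulocyte and proliferation markers overlapped between the genotypes. The part of other cells in the differences was not tested.

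Clusters of microglia separated almost fully by genotype, so their levels are a description. Clusters 1, 2 and 3 held 7417 control cells, and Tgfb1 stood there at 301, 295 and 332 CPM. In clusters 0, 4, 5 and 6, of nearly only knockout cells, it stood at 197, 172, 205 and 169 CPM. The smaller clusters 8, 11 and 15, with 78.9, 91.6 and 90.5% knockout cells, had Tgfb1 at 272, 182 and 217 CPM and Smad1 at 53.0, 80.03 and 65.1 CPM. Cluster 4 was led by Xist and Tsix, and Xist was high in knockout mouse 1 alone. Smad1 lay at 82.7 to 105 CPM in clusters 1, 2 and 3 and at 46.2 to 67.2 CPM in clusters 0, 4, 5 and 6. Smad3 did not separate them in this way. It was highest in control cluster 1 at 144 CPM, but control cluster 3 had 64.2 CPM, less than the 88.7 CPM of knockout cluster 0. Tgfbr1 ranged from 1295 CPM in control cluster 3 to 2669 CPM in knockout cluster 0. Long genes took 25.0% of UMIs in cluster 1 and 12.03% in cluster 3, and the part of this in the levels was not tested.

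Cluster 10, led by Cst7, Cox6a2 and Apoe and made of 430 knockout and 32 control cells, had the lowest level of 9 of the 10 genes. Tgfbr1 was at 520 CPM there, Smad3 at 20.8 and Smad2 at 26.0 CPM, while Tgfb1, at 211 CPM, was at the median of the 11 clusters. Long genes took 4.70% of UMIs in this cluster. Smad3 varied most between the clusters, by 6.92-fold from lowest to highest, and Tgfb1 least, by 1.96-fold. Cluster 11, led by the interferon-induced Cxcl10, Rsad2 and Ifit3, had the highest Skil, at 248 CPM.

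**Figure D3:**
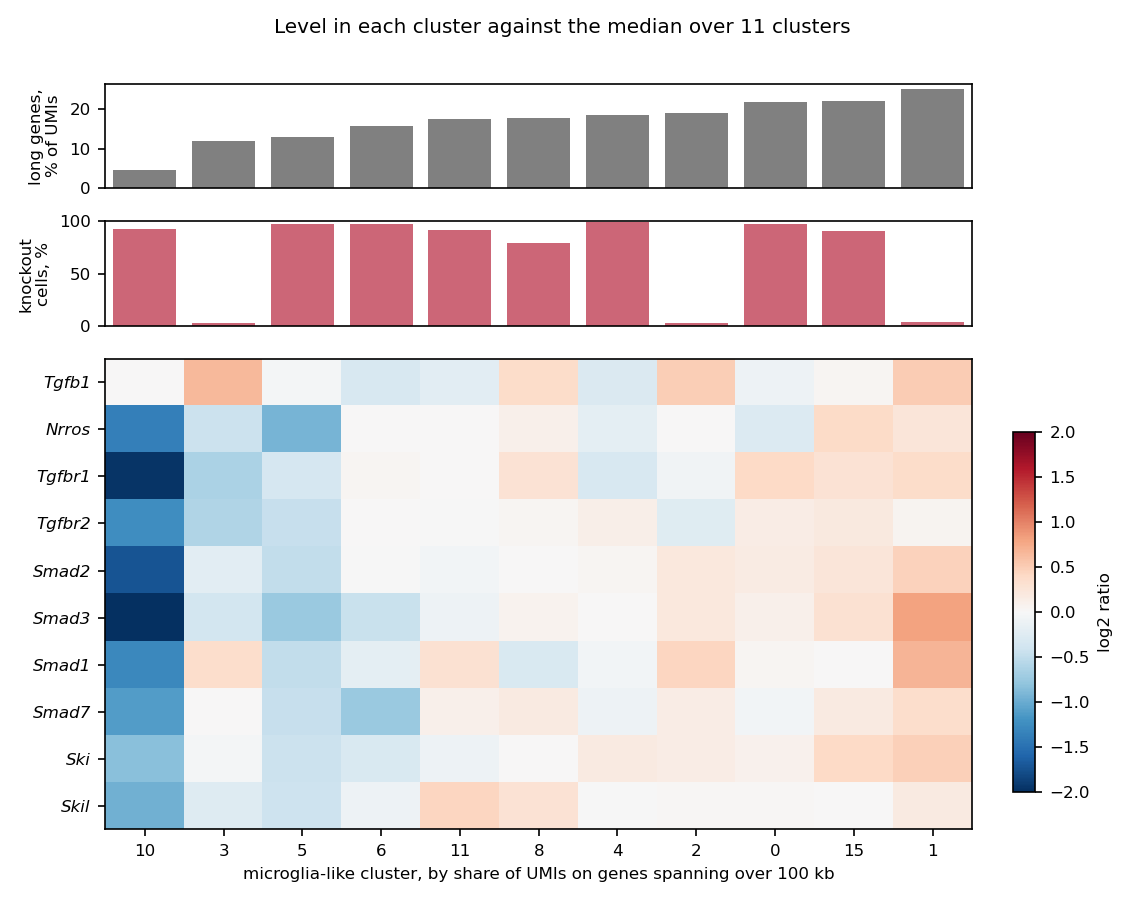
Level of each of the 10 genes in the 11 clusters of microglia-like cells, shown as the log2 ratio to the median of the clusters, which are ordered by the share of UMIs on genes over 100 kb (upper bars) and marked with their percent of knockout cells (middle bars). Cluster 10 is the lowest for 9 genes, and the control clusters 1, 2 and 3 are the 3 highest for Tgfb1.

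Ms4a7, a membrane protein gene known from border macrophages, rose in knockout microglia from 10.6 to 36.6 CPM in control mice to 194 to 342 CPM in knockout mice (adjusted p = 5.9e-06). Cells with an Ms4a7 UMI numbered 2553 in knockout mice and 212 in control mice. In cells without one, the genotypes still differed. Of the 10 genes 5 passed there, with 43.6% of all 12465 genes passing, and the control mice are those of the comparison above. Tgfb1 measured 295 ± 10.3 CPM in control and 208 ± 16.8 CPM in knockout mice (SD, n = 4 each; log2 fold change -0.51, adjusted p = 9.1e-05). Smad1 was lower by a log2 fold change of -0.45, Smad3 by -0.38 and Nrros by -0.23, and Tgfbr2 was higher by 0.28. Smad2, Smad7 and Ski had log2 fold changes of -0.13, -0.17 and -0.16 and did not pass (adjusted p = 0.055, 0.060 and 0.062). With total UMIs alone as the scale 8 genes passed in place of 5, since that scale moved the median of all genes by -0.10.

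Within knockout mice, Ms4a7-positive cells differed from Ms4a7-negative cells in none of the 10 genes at an adjusted p of 0.05, where 2.95% of 11724 genes passed. In edgeR's test 1843 genes had an unadjusted p under 0.05, with Smad7 and Nrros the 2 members among them, and DESeq2 also passed 0 of the 10. With the mouse as a block, which pairs the cells of an animal, 16.4% of genes passed, Smad7 and Nrros with them. Smad7 measured 123, 143, 114 and 126 CPM in the Ms4a7-negative cells of knockout mice 1 to 4 and 106, 101, 91.8 and 108 CPM in the positive cells. It was lower in the positive cells of all 4 mice, by a log2 fold change of -0.30 with the block (adjusted p = 0.00060). Nrros measured 181, 184, 157 and 175 CPM in negative and 191, 198, 198 and 215 CPM in positive cells. It was higher in the positive cells of all 4 mice, by a log2 fold change of 0.20 (adjusted p = 0.0086 with the block).

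The cluster with the highest Ms4a7, formed without the 10 genes, gave larger differences than single UMIs. Its 1429 knockout cells had Smad7 at 82.9 ± 7.42 CPM against 123 ± 10.97 CPM in the other knockout microglia (SD, n = 4 mice), a log2 fold change of -0.56 (adjusted p = 0.0030). Smad3 stood at 60.6 against 78.3 CPM (log2 fold change -0.37, adjusted p = 0.047). These 2 genes passed beside 15.0% of 11687 genes. With the mouse as a block 24.0% of genes passed and 5 members with them. Nrros was then higher by 0.26 (adjusted p = 0.013), and Smad7 by -0.57 (adjusted p = 3.8e-05), Smad3 by -0.37 (adjusted p = 0.016), Tgfb1 by -0.24 (adjusted p = 0.032) and Ski by -0.24 (adjusted p = 0.038) were lower. Ms4a7-positive knockout cells had a median of 3207 to 4174 UMIs and negative ones 4087 to 4604. The 7 CAM markers summed to 46.0 to 174 CPM in the positive and 13.4 to 40.2 CPM in the negative cells. Whether the Ms4a7-high cells are microglia is uncertain. At resolution 0.4, cells led by Pf4, Mrc1, F13a1 and Ms4a7, 1444 of them from knockout mice, were named CAM-like. In control mice, CAM-like cells differed from microglia in the same direction for the 5 genes that passed with the block. Among them were Smad7 (log2 fold change -2.10) and Nrros (0.40). Tgfbr1 (-1.35) and Skil (-0.63) were lower in CAM-like cells too but did not pass in the cluster. The part of cell identity and of these markers in the differences was not tested.

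Between cell types of control mice, all 10 genes were read in every named class with at least 10 cells in a mouse. Values here are CPM by total UMIs, as means over mice. The 2 unnamed clusters, whose cells held few UMIs, are left out of the order. Cluster 7 (960 control cells) had higher means than microglia for Nrros (261 CPM), Tgfbr1 (2513), Tgfbr2 (658), Smad2 (107), Smad3 (128) and Skil (211 CPM), and cluster 9, with 25 control cells in 2 mice, for Smad2 (176) and Smad7 (294 CPM). Tgfbr1 separated microglia most clearly, at 2099 ± 31.6 CPM against 828 ± 77.7 in T cell-like cells, 706 ± 112 in CAM-like cells and 216 ± 106 in monocyte-like cells (SD, n = 4 mice each). The ranges of T cell-like and CAM-like cells overlapped, and microglia overlapped with neither. Granulocyte-like cells, from 1 mouse, had 139 CPM.

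**Figure D4:**
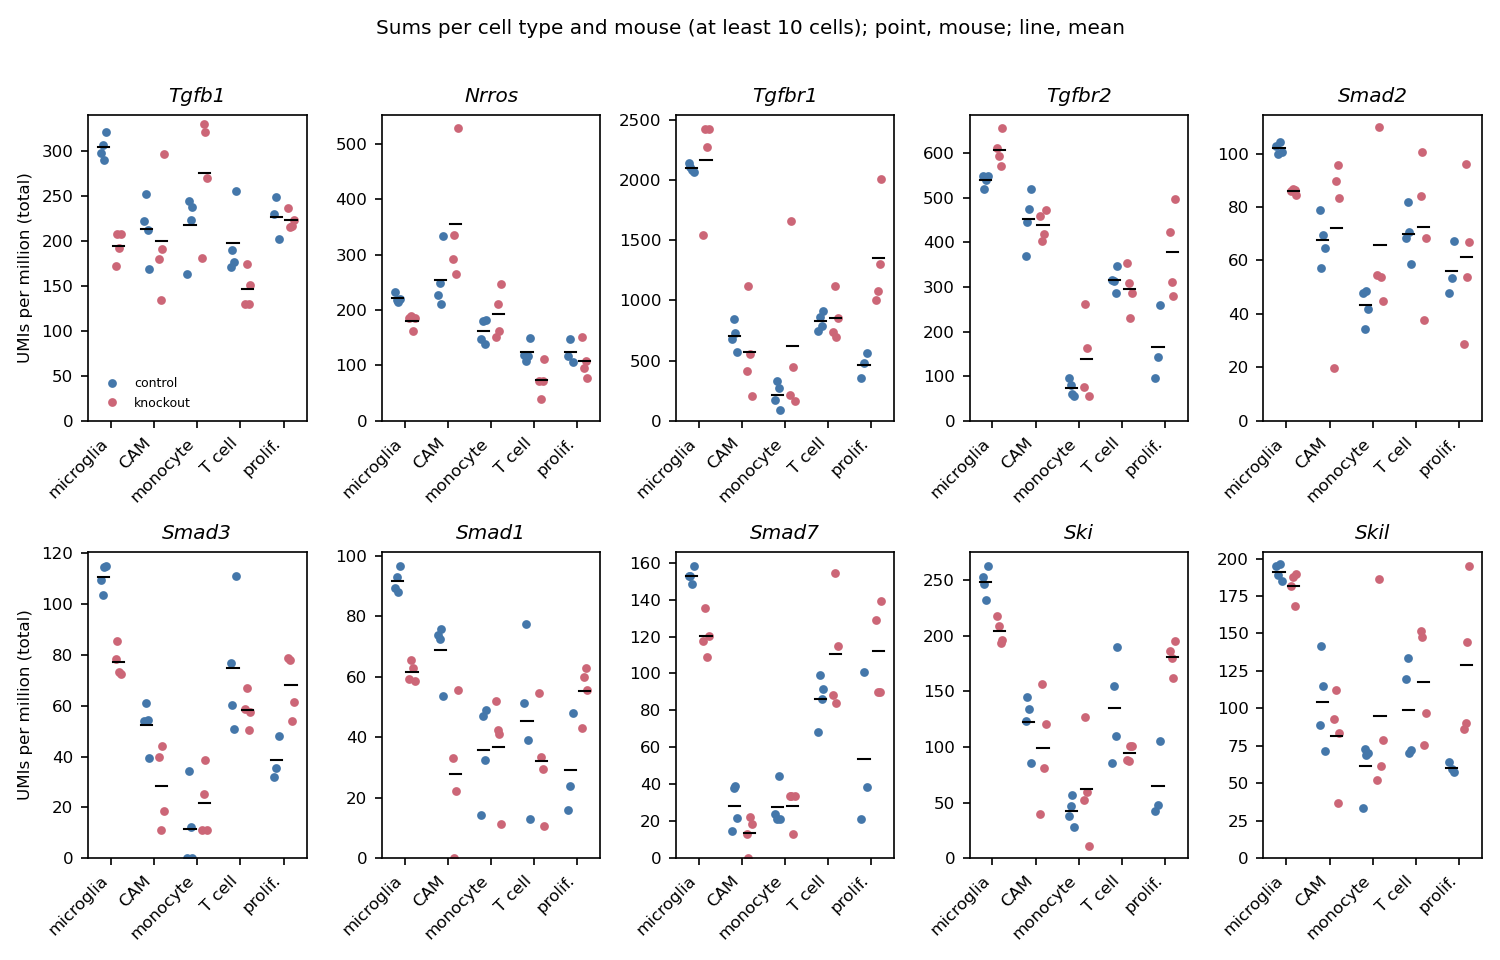
CPM of the 10 genes by total UMIs in the cell types of control (blue) and knockout mice (red), with 1 point for a mouse and a line at the mean. In control mice Tgfbr1 is at 2099 CPM in microglia-like cells and 706 CPM in CAM-like cells, and Nrros is the gene for which the CAM-like mean, at 255 CPM, lies above that of microglia-like cells, at 221 CPM.

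Tgfb1 was more even across the cell types. Microglia had 304 ± 13.2 CPM, and CAM-like, monocyte-like and T cell-like cells had means of 214, 217 and 198 CPM whose ranges overlapped each other. Granulocyte-like cells had 36.4 CPM. Nrros had its highest means among the named classes in the macrophages, at 255 ± 54.7 CPM in CAM-like and 221 ± 8.36 CPM in microglia, with overlapping ranges, and at 162 ± 22.2 CPM in monocyte-like and 124 ± 18.5 CPM in T cell-like cells. Tgfbr2 stood at 539 ± 13.4 CPM in microglia, 453 ± 63.1 in CAM-like and 316 ± 24.9 in T cell-like cells, and at 73.5 ± 18.4 CPM in monocyte-like cells. Smad7 was at 153 ± 3.93 CPM in microglia, 86.3 ± 13.1 in T cell-like cells, 28.4 ± 12.1 in CAM-like and 27.8 ± 11.4 CPM in monocyte-like cells, and the last 2 overlapped. Smad1, Smad2 and Smad3 had their highest means among the named classes in microglia as well, at 91.8, 102 and 111 CPM, as did Ski at 249 and Skil at 191 CPM.

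CAM-like cells were compared with microglia of the same control mice, where 7 of the 10 genes passed and 30.1% of 10593 genes did. This fit did not pair the sums of a mouse, and with the mouse as a block no call of the 10 genes changed. Smad7 measured 15.8, 40.5, 43.4 and 23.5 CPM in CAM-like cells of mice 1 to 4 and 145, 142, 139 and 146 CPM in their microglia (TMM scale). It had the largest difference, a log2 fold change of -2.10 (SE 0.18, adjusted p = 3.0e-11). Tgfbr1 was at 765 ± 115 CPM in CAM-like and 1962 ± 49.4 CPM in microglia, a log2 fold change of -1.35 (adjusted p = 7.1e-16). Smad3 (-0.86), Ski (-0.79) and Skil (-0.63) were lower in CAM-like cells as well. Tgfb1 was lower by a log2 fold change of -0.30 (adjusted p = 0.020) and Nrros higher by 0.40 (adjusted p = 0.0031). The Tgfb1 call did not hold without control mouse 3 (adjusted p = 0.051) or 4 (adjusted p = 0.20), and the Nrros call not without control mouse 4 (adjusted p = 0.13). Tgfbr2 (-0.01), Smad1 (-0.18) and Smad2 (-0.38) did not pass (adjusted p = 0.95, 0.42 and 0.053).

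In CAM-like cells, 21 to 115 per mouse, the genotypes could be compared for 7 of the 10 genes, and none passed in edgeR's test, where 38 of 3140 genes (1.21%) did and 369 had an unadjusted p under 0.05, with 0 of the 7 among them. Smad1, Smad3 and Smad7 had too few UMIs. Nrros measured 270, 290, 255 and 393 CPM in control and 377, 382, 326 and 612 CPM in knockout mice, with overlap (log2 fold change 0.49, SE 0.24, adjusted p = 0.43). Tgfb1 was at 254 ± 40.1 CPM in control and 241 ± 78.3 CPM in knockout mice (log2 fold change -0.06, SE 0.24). The test of whether the genotype difference itself differed between CAM-like cells and microglia passed for 4.40% of 11182 genes and for none of the 10, with 1865 genes at an unadjusted p under 0.05, Nrros and Smad1 among them. It was nearest for Nrros, at 0.62 on the log2 scale (SE 0.21, adjusted p = 0.097), and for Tgfb1 it was 0.42 (SE 0.22, adjusted p = 0.34). The sums of a mouse were not paired in this test, and with the mouse as a block none of the 10 passed. At this depth, 89273 to 461219 UMIs per mouse, the standard error of 0.24 for Tgfb1 and of 0.24 for Nrros limits the differences that could be detected.

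In T cell-like cells, 21 to 51 per mouse, none of the 9 genes tested passed, where 3.88% of 4204 genes did and 609 had an unadjusted p under 0.05, Nrros among them. Smad1 was not tested. Tgfb1 measured 192, 210, 201 and 279 CPM in control and 150, 201, 152 and 181 CPM in knockout mice, with overlap, a log2 fold change of -0.38 (SE 0.20, adjusted p = 0.42). Nrros, at 138 and 86.3 CPM, had a log2 fold change of -0.59 (SE 0.27, adjusted p = 0.30). Monocyte-like cells had Tgfbr1 at 91.0 to 330 CPM in control mice, and at 216, 1658, 444 and 169 CPM in knockout mice 1 to 4, where the value of mouse 2 came from 21 cells.

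The genes whose levels across the 44 sums of 7 cell types and 8 mice were most like those of 4 of the members are given as a description. Candidates were 9206 genes, all sums share 1 library, and the measure is Pearson's r of log2(CPM + 10). For Tgfb1 they were Ptp4a2 (0.83), Irf8 (0.78) and Syncrip (0.76), for Tgfbr1 Ldlrad4 (0.96), Plxdc2 (0.95) and Frmd4a (0.94), for Smad3 Itgb5 (0.87), Plxna4 (0.86) and Dpy19l4 (0.85), and for Nrros Fcgr2b, Adgre1 (0.82 each) and Cd302 (0.81).

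Around the 10 genes, 90 further genes in 8 lists of the pathway were read, of which 62 could be tested in microglia. Of these, 17 were higher and 17 lower in knockout microglia and 28 did not pass, with a median log2 fold change of 0.06. These counts stand beside 22.8% of all genes higher, 23.2% lower and 46.1% passing in either direction, and the list counts that follow are to be read against the same shares. Of the 10 other ligands, none had enough UMIs. Genes that hold or release latent TGFβ were 4 higher and 1 lower of 8 tested. Itgb8, the integrin subunit that frees TGFβ from its latent complex, was at 6.25 ± 1.60 CPM in control and 148 ± 26.1 CPM in knockout mice (SD, n = 4 each), a rise by 4.60 on the log2 scale (SE 0.18, adjusted p = 6.4e-08). Emilin1, an extracellular matrix protein that binds the ligand precursor, rose from 1.18 to 5.17 CPM, and Itgb1 fell by 0.34 on the log2 scale.

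Of 9 tested receptors and co-receptors 5 fell and none rose, where 23.2% of all genes fell. Eng, the co-receptor endoglin, fell from 63.3 ± 2.00 to 28.7 ± 6.66 CPM (log2 fold change -1.14, adjusted p = 8.1e-05), and Tgfbrap1, a receptor-associated protein, fell by 0.73 on the log2 scale. Inhibitors and turnover genes went both ways, 4 higher and 4 lower of 15. Bambi, a decoy receptor without a kinase, rose (log2 fold change 2.73) from 1.38 to 8.999 CPM, and the corepressor Tgif1 rose by 0.82, while its relative Tgif2 (-0.71) and Pmepa1 (-0.66), which sequesters receptor Smads, fell. Of the nuclear cofactors 3 of 7 fell, Zeb1 by 0.60 and Sp1 by 0.31 on the log2 scale. In the branch that runs through the kinase TAK1 and not through Smads, 2 of 8 genes rose (Rock1, 0.24, and Traf6, 0.23) and 3 fell, among them Tab2 (-0.50) and Tab1 (-0.32), adaptors of TAK1. Of 6 other Smads and their anchors, Zfyve9 was higher (0.24) and Smad5 lower (-0.32).

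**Figure D5:**
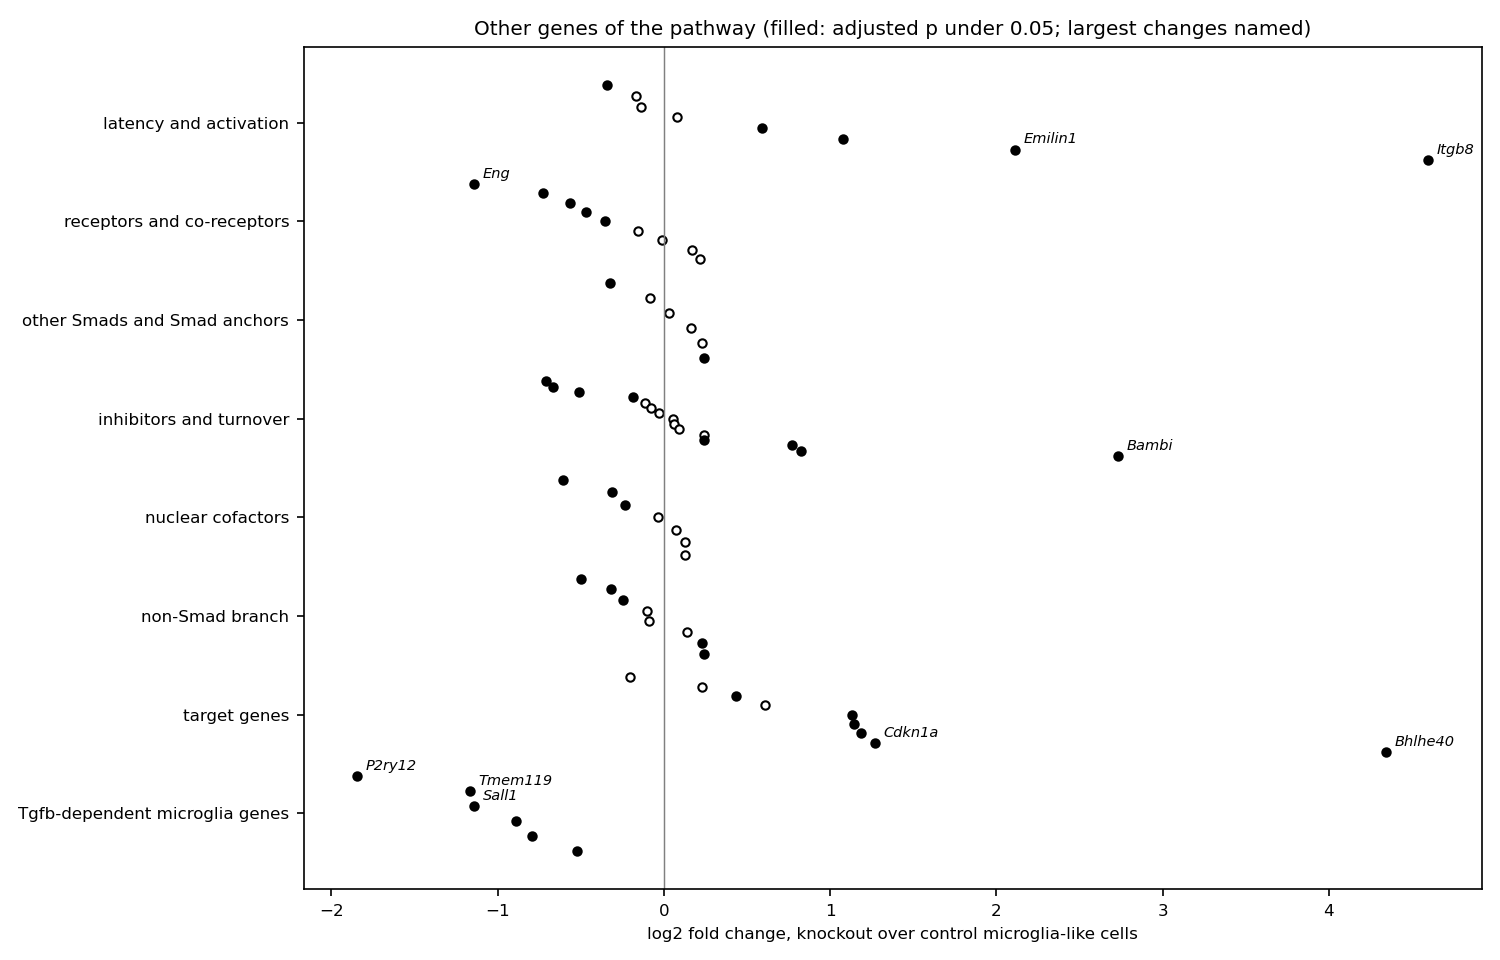
Log2 fold changes of the tested genes of the pathway lists in knockout against control microglia, with 1 row for a list and filled points for genes past an adjusted p of 0.05 (edgeR). Receptors hold 5 lower and no higher genes, target genes 6 higher and no lower ones, and all 6 microglia genes that the study lists as TGFβ-dependent are lower.

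Genes known as targets of TGFβ in other cells were 6 higher and none lower of 9 tested, where 22.8% of all genes were higher. Bhlhe40, a transcription factor, was at 2.84 ± 0.870 CPM in control and 54.6 ± 14.5 CPM in knockout mice, a rise by 4.35 on the log2 scale (adjusted p = 6.0e-07), and Cdkn1a, the cell cycle inhibitor p21, rose from 13.5 to 32.2 CPM (1.27). The 6 microglia genes that the study names as dependent on TGFβ all fell. P2ry12, a purine receptor of resting microglia, went from 2627 ± 92.2 to 732 ± 170 CPM (log2 fold change -1.84, adjusted p = 2.7e-06). Tmem119 had a log2 fold change of -1.17, Sall1, a transcription factor of microglial identity, -1.14, Olfml3 -0.89, Fcrls -0.79 and Mef2a -0.52. The study takes these genes from earlier work and shows them in these same cells, and 5 of them also served here to name the microglia, so the direction of these genes is not independent evidence. Between Ms4a7-positive and Ms4a7-negative knockout cells, Itgb8 (0.76), Acvrl1 (0.71) and Tgif1 (0.46) were higher in the positive cells and Eng (-0.84), Tmem119 (-0.53) and Olfml3 (-0.56) lower, and the other tested genes of all lists did not pass.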

How the data were processed

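Raw UMI counts per gene and cell, deposited by the authors as 1 matrix for each of 8 mice and 1 for the whole pool, were used. Per the labels and methods, a pooled 10x 3′ library was aligned to mm10 (the labels list Cell Ranger 6.1.2, the file headers name cellranger 7.1.0), and cells were assigned to mice by their tags, which lay highest in 19724 of 19864 barcodes. The deposited counts of the pool were read in barcodes of at most 100 UMIs as empty droplets. All kept cells had the same total in the mouse matrix and in the pool, so the deposited counts carry no ambient correction, although the methods name SoupX. The members and gene lists were chosen with earlier results of these data known.

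Cells with at least 200 genes and under 20% mitochondrial UMIs were clustered with Seurat 5.3.0 (10000 variable genes without the 10 members and the other listed genes, 20 components, resolution 0.8). No doublet caller was run, so doublets within a mouse stay in. A cluster was named from fixed markers at a log2 limit of 1 for their median over the other cells. Otherwise it was microglia-like with at least 3 markers at a limit of 0.5 over the pooled T cell-like, B cell-like and granulocyte-like clusters. The limit of 0.5 was chosen after the clusters were seen. It brought in cluster 6 (1284 cells, 1254 of them from knockout mice, led by Ms4a7), which had 2 markers at the limit of 1, and whose name is uncertain. Against lymphoid and granulocyte clusters, 7 of the 9 microglia markers were higher in it (Cx3cr1 at 1577 against 781 CPM) and P2ry12 (377 against 395) and Sall1 (33.9 against 63.1 CPM) lower. Of the 7 CAM markers 3 were higher, among them Mrc1 (135 against 25.9) and Pf4 (67.5 against 22.9 CPM), and 4 lower, with Lyve1 at 0. At resolution 0.4 the cells led by Pf4, Mrc1, F13a1 and Ms4a7 formed 1 cluster of 1762 cells (1444 from knockout mice) that was named CAM-like, and 7 of the 10 genes passed in the remaining microglia. Clusters 7 (1003 cells) and 9 (505 cells) stayed unnamed, although each had all 9 microglia markers above the limit of 0.5. Their cells held few UMIs, at 0.33 and 0.29 of the median of their own mouse. No microglia marker was among their 10 leading genes.

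Counts were summed per mouse and cell type (at least 10 cells) and tested over all genes with edgeR 4.0.16 in R 4.3.3 (filterByExpr, TMM, quasi-likelihood F test, Benjamini-Hochberg adjusted p under 0.05), with the standard error taken from the F statistic. The code was tested on simulated data. Shares of cells were compared by exact two-sided permutation. Alternatives were another scaling (RLE, total UMIs alone), DESeq2 1.42.0, no filter, a replicate block, each mouse left out, resolution 0.4, all deposited cells, thinned cells and 10% of free RNA subtracted. Another 3, without the Ms4a7-high cluster, without cluster 6, and the Ms4a7-high cluster with a block, were added after seeing the data. Named genes are the 10 members, Arpc4 and Ms4a7 as checks, the 2 largest rises and falls past the threshold per pathway list, with at least 5 CPM in 1 genotype, the study's 6 TGFβ-dependent genes and the 3 genes most alike to 4 members. Xist and marker genes of clusters were named after their values were seen. Nothing in the sources ties the mice to separate preparations. The p-values set a difference against the spread between these mice. Per the methods, all mice were dissected, sorted and loaded within the same day, with the same operator. No variation between runs therefore enters the p-values. Intervals for counting error were not needed, since mice were compared. Depth per mouse was 4216725 to 11690546 UMIs in microglia-like cells.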

Additional observations from a re-analysis of the deposited data

Results flagged for a closer look

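In 140 groups of 4 values (CPM or thinned share of a gene over 4 mice), 10 had 1 mouse farther from the others than Dixon's 95% limit for 4 values allows. Chance flags about 1 group in 20. Nrros was highest in control mouse 1, at 229 CPM in all microglia-like cells against 207 to 210 in the other 3, at 227 CPM in Ms4a7-negative cells, and at 221 CPM on the scale of the comparison with CAM-like cells. Nrros was lowest in knockout mouse 3 in microglia-like cells, at 171 CPM against 193 to 195. The genotype call of Nrros rests on both mice.

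Tgfbr1 was lowest in knockout mouse 1, at 1612 CPM in microglia-like cells against 2381 to 2531 in the other 3, and at 1542 CPM in Ms4a7-positive cells against 2246 to 2370. The share of thinned cells with a Tgfbr1 UMI was 86.2% in that mouse and 93.9% or more in the others. This is the mouse with Xist at 1443 CPM. The study's text counts 1 female among the knockout mice, which it left out, without giving its number. All 8 mice were kept here, and sex and mouse cannot be told apart.

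Skil was lowest in knockout mouse 3 in Ms4a7-negative cells, at 175 CPM in the comparison with controls and at 168 CPM in that with Ms4a7-positive cells. The share of thinned cells with a Smad3 UMI was highest in knockout mouse 2, at 14.1% with 12.1% in the next mouse.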

How the results depend on the processing

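Each alternative was run for every comparison it applies to, and no result that passed in the main or the alternative setting changed direction. Among results that did not pass, the sign changed for some. Skil in microglia ranged from -0.07 to 0.07 on the log2 scale, and in CAM-like cells Tgfb1 ranged from -0.26 to 0.09 and Smad2 from -0.19 to 0.41. For fold changes and shares of single genes, 785 results kept their side of the threshold, 17 came past it and 27 fell short of it. In knockout against control microglia the 8 genes that passed were 5 with all deposited cells, and 5 to 9 with 1 mouse left out, 5 being without control mouse 1, 9 without knockout mouse 1. Over the same left-out mice 5186 to 6384 of all genes passed, in place of 5863. Leaving out cluster 6 or the Ms4a7-high cluster gave 7 genes each, without Ski. In Ms4a7-negative cells 8 of the 10 genes passed with total UMIs alone, in place of 5. Of all genes, 2060 were then higher and 3982 lower, in place of 2694 and 2743.

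Between Ms4a7 states, the replicate block gave 2 of the 10 genes and 1919 of all genes, the Ms4a7-high cluster 2 and 1750, that cluster with the replicate block 5 and 2800, and thinned cells 596 of all genes, in place of 346. With 1 mouse left out the count lay between 62 (without knockout mouse 4) and 742 (without knockout mouse 1), with 103 without mouse 2 and 129 without mouse 3. In CAM-like cells, 38 genes became 130 without a filter, 13 with the replicate block and 10 to 58 with 1 mouse left out, beyond 1.5 times without control mouse 1 (14), 2 (25), 3 (10) or 4 (25) or knockout mouse 2 (58). In T cell-like cells 163 genes became 104 to 173, 104 without control mouse 2, and for the difference between cell types 492 became 325 to 567, 325 without control mouse 3. The causes were not tested, and leaving out a mouse changes the number of mice and the set of mice at once.

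The replicate numbers of the 2 genotypes do not pair mice. Deviations from the group means correlated at -0.07, -0.01, -0.03 and -0.01 for the 4 equal numbers, and no knockout mouse correlated best with its own number. In that comparison the block took Smad2 short of the threshold (adjusted p = 0.062) and changed no other call of the 10 genes. Sparse classes limit what depth can show, with 89273 UMIs in the CAM-like cells of knockout mouse 2.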

Other observations

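In the cells called proliferating, the genotypes stood apart for some of the 10 genes, which are given as values without a test. This class was led by Elane, Prtn3 and Mpo, genes of granulocyte precursors, beside the cell cycle genes Top2a and Ube2c, and had 32 cells in the 3 control mice and 59 cells in the 4 knockout mice with at least 10 cells. On the scale of total UMIs, Tgfbr1 measured 357, 480 and 567 CPM in control mice 1, 3 and 4 and 1004, 1079, 1305 and 2007 CPM in knockout mice 1 to 4. Ski stood at 65.3 ± 35.1 CPM over the control mice and 181 ± 14.1 CPM over the knockout mice, and neither gene overlapped between the genotypes. Tgfbr2 (at most 260 against at least 279 CPM), Smad3 (48.1 against 54.0) and Skil (64.0 against 86.0 CPM) did not overlap either. Nrros, Smad1, Smad2 and Smad7 overlapped. The share of all genes without overlap was not computed, so the lack of overlap cannot be read as particular to these genes. Smad3 rested on 5 to 13 UMIs a mouse. In this class 5 microglia markers lay above the lymphoid and granulocyte clusters, and whether its make-up differed by genotype was not tested. Tgfb1 was at 227 ± 23.7 and 223 ± 9.74 CPM, with overlap. The cells of this class had a median of 8291 UMIs, against 4054 in microglia-like cells.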
